A study of Mus musculus with 6 samples.

Results

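The genes described here carry amino acids and related small molecules across membranes. They are the 63 genes on the array whose symbol begins with Slc1a, Slc3a, Slc6a, Slc7a, Slc36a, Slc38a or Slc43a, of 18194 genes in all, and each is read from its brightest probe set, by the mean of log2 values over the 6 arrays. RNA came from ovarian granulosa cells of 23-day-old mice primed 48 h earlier with equine chorionic gonadotropin (eCG, 5 IU), a hormone that drives follicle growth. Wild type mice were compared with mice labelled ERK1 knockout and ERK2 fl/fl;Cyp19CRE, in which ERK1 is lost throughout and ERK2 is removed by a Cre recombinase under Cyp19 (aromatase) control, a gene of granulosa cells. Both genotypes were sampled before human chorionic gonadotropin (hCG, 5 IU), called 0 h, and at 2.5 h and 4 h of hCG, an agent that acts on the luteinizing hormone receptor as the ovulatory surge does. Each genotype and time had 1 array, so a comparison of 2 arrays has no replicate error. The labels give no number of mice behind an array, and probe sets for ERK1 and ERK2 were not analysed here.

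Animal cells take up amino acids through families of solute carriers. Sodium-coupled carriers such as the Slc38a family load the cell with glutamine and other small neutral amino acids, and exchangers such as the Slc7a light chains trade these for leucine, cystine or arginine. Most light chains reach the cell surface only when joined to a heavy chain, Slc3a2 (4F2hc) or Slc3a1. In the follicle, granulosa-derived cumulus cells take up some amino acids that the oocyte imports poorly and pass them on through gap junctions.

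Values are array intensities on a linear scale, and a mean log2 of at least 6 (intensity 64) was taken as the floor for a gene to be counted. Of the 63 genes, 33 passed that floor, against 11153 of all 18194. They comprised 9 of 9 Slc38a genes, 10 of 16 Slc7a genes, 7 of 21 Slc6a genes, 2 of 7 Slc1a genes, 2 of 5 Slc36a genes, 2 of 3 Slc43a genes and 1 of 2 Slc3a genes. The 30 others lay between 14 and 71 on all arrays and are given by range, apart from 2 proline carriers. Among them were the glutamate carriers Slc1a1, Slc1a2, Slc1a3, Slc1a6 and Slc1a7, Slc3a1, the heavy chain of kidney and gut, and GABA, dopamine and serotonin carriers of the Slc6a family. The symbol rule also takes in 3 opposite-strand genes that are no transporters, of which Slc7a6os passed the floor. By the probe set used it was nearly flat, between 262 and 302. A second probe set read 335, 211 and 223 in wild type at 0 h, 2.5 h and 4 h, against 250, 266 and 238 in knockout.

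The cells carried the markers of their label. All 9 measured granulosa markers were over 64 on every array, and their summed intensity was 68940 to 120677 in wild type and 115064 to 140034 in knockout. Of 16 oocyte markers, 15 were over 64 on every array, with a summed intensity of 16463 to 26462 in wild type and 18079 to 48463 in knockout, the highest at 0 h. Markers of other cell types were also measured. For surface epithelium, the median log2 difference of knockout minus wild type at 0 h, 2.5 h and 4 h was 0.33, 0.66 and 0.5. Krt7 among them was 2.93-fold, 2.96-fold and 2.45-fold higher. The medians were -0.39, -0.86 and -0.46 for endothelium, -0.27, -0.27 and 0.12 for smooth muscle and stroma, and 0.01, 0.17 and 0.46 for leukocytes. Of 4 theca markers Cyp17a1 stood apart in knockout after hCG (14251 and 13997, against 1399 to 2037 on the other arrays). Ptch1 was lower there (1060 and 1540) than in wild type (1789 and 1868). In such bulk samples, fewer cells of a type and less RNA per cell cannot be told apart.

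For some of the genes whose hCG response the results turn on, the RefSeq tables held promoter windows of GRCm38.p6, from 250 bases before to 50 bases after an annotated start. Slc38a1 had no window there. Shown are the windows of Slc7a8, which had the largest response in knockout, of Slc7a11, whose response was larger in wild type, of Slc7a1, whose response at 2.5 h was larger in knockout, and of Slc38a6, which was lower after hCG in both. They lie at chr14:54781837-54782136 (minus strand), chr3:50443564-50443863 (minus strand), chr5:148399855-148400154 (minus strand, the more upstream of 2 starts) and chr12:73286598-73286897 (plus strand), and are written 5′ to 3′ along the gene. Capitals mark matches on either strand to the cAMP response element TGACGTCA or its half-site TGACG, the AP-1 element TGANTCA, and the amino acid response element TGATGNAA.

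Slc7a8: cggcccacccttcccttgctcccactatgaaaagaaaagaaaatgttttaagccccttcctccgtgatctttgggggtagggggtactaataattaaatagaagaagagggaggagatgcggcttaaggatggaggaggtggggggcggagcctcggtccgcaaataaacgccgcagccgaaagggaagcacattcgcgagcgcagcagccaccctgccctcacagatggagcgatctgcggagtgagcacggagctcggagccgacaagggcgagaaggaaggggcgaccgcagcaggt

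Slc7a11: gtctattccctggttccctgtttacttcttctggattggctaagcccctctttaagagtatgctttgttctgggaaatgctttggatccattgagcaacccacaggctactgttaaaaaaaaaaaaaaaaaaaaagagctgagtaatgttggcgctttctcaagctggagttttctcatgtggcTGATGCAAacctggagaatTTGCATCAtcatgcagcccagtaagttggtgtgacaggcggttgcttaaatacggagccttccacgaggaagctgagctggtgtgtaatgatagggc

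Slc7a1: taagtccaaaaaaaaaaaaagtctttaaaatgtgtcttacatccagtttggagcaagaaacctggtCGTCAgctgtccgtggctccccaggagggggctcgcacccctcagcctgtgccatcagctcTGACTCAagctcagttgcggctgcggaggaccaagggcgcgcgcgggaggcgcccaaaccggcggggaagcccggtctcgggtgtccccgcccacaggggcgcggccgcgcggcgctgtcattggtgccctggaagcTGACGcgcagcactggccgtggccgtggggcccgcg

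Slc38a6: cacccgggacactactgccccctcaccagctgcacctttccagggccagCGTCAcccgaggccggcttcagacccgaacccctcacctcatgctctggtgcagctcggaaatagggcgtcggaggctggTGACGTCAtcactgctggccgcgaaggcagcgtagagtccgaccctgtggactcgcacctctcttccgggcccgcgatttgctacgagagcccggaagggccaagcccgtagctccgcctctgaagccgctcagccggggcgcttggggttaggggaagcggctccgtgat

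The window of Slc7a11 held TGATGNAA on both strands, starting at bases 185 and 204 of the window, and 3.97% of all 32851 windows held that motif. That of Slc7a1 held 2 half-sites and 1 AP-1 match (TGACTCA), motifs found in 20.8% and 7.81% of all windows. Slc38a6 held the full TGACGTCA, which contains 2 half-sites, from base 130 of its window, as 1.79% of all windows did, and a further half-site at base 50. None of the 4 motifs was spelled in the Slc7a8 window. The members had 67 windows, of which 18 held a half-site, 10 the AP-1 motif, 5 the amino acid response motif and 1 the full element. By gene, in any of its windows, these were 17, 9, 4 and 1 of the 46 genes with a window among the 63. The shares above are of windows, so only the counts of windows compare with them.

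In wild type cells hCG was followed by higher levels of the exchanger Slc7a8, the cystine carrier Slc7a11, the arginine carrier Slc7a1 and the glutamine carrier Slc38a4, and later of the heavy chain Slc3a2. A gene was counted as different when 2 arrays differed at least 2-fold and the brighter was at 64 or more. At 2.5 h, 4 of 33 members stood above 0 h (3.3% of all genes past the floor) and 0 lower (0.995% of all genes). By 4 h, 5 members were higher (4.9% of all genes) and 3 lower (9.09% of all genes). The median log2 difference of the 33 was -0.11 at 2.5 h and -0.17 at 4 h, beside -0.22 and -0.21 over all genes. With cyclic loess in place of the deposited scaling these medians became 0.03 and -0.01, beside -0.05 and -0.04, and at 4 h the calls became 8 up and 2 down, beside 680 up and 651 down over all genes (547 and 1014 as deposited).

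In knockout cells the same carriers except Slc3a2 were over the 2-fold line at 2.5 h, together with Slc38a1. The Slc7a11 call there (2.03-fold) ended with the mean of all probe sets (0.29, log2) and with 32 added (0.76). In wild type at 2.5 h Slc38a1 was 1.57-fold above 0 h by the probe set used and 2.66-fold by a second. Averaging all probe sets made it a call there (1.03, log2). In knockout at 2.5 h, 5 of 33 members were higher (3.35% of all genes) and 1 lower (3.57% of all genes). At 4 h, 7 were higher (3.87% of all genes) and 3 lower (4.55% of all genes), with a median log2 difference of 0.27 beside 0.02 over all genes. Over the 7 comparisons, 13 of 33 members were called at least once, beside 22.5% of all genes.

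**Figure D1:**
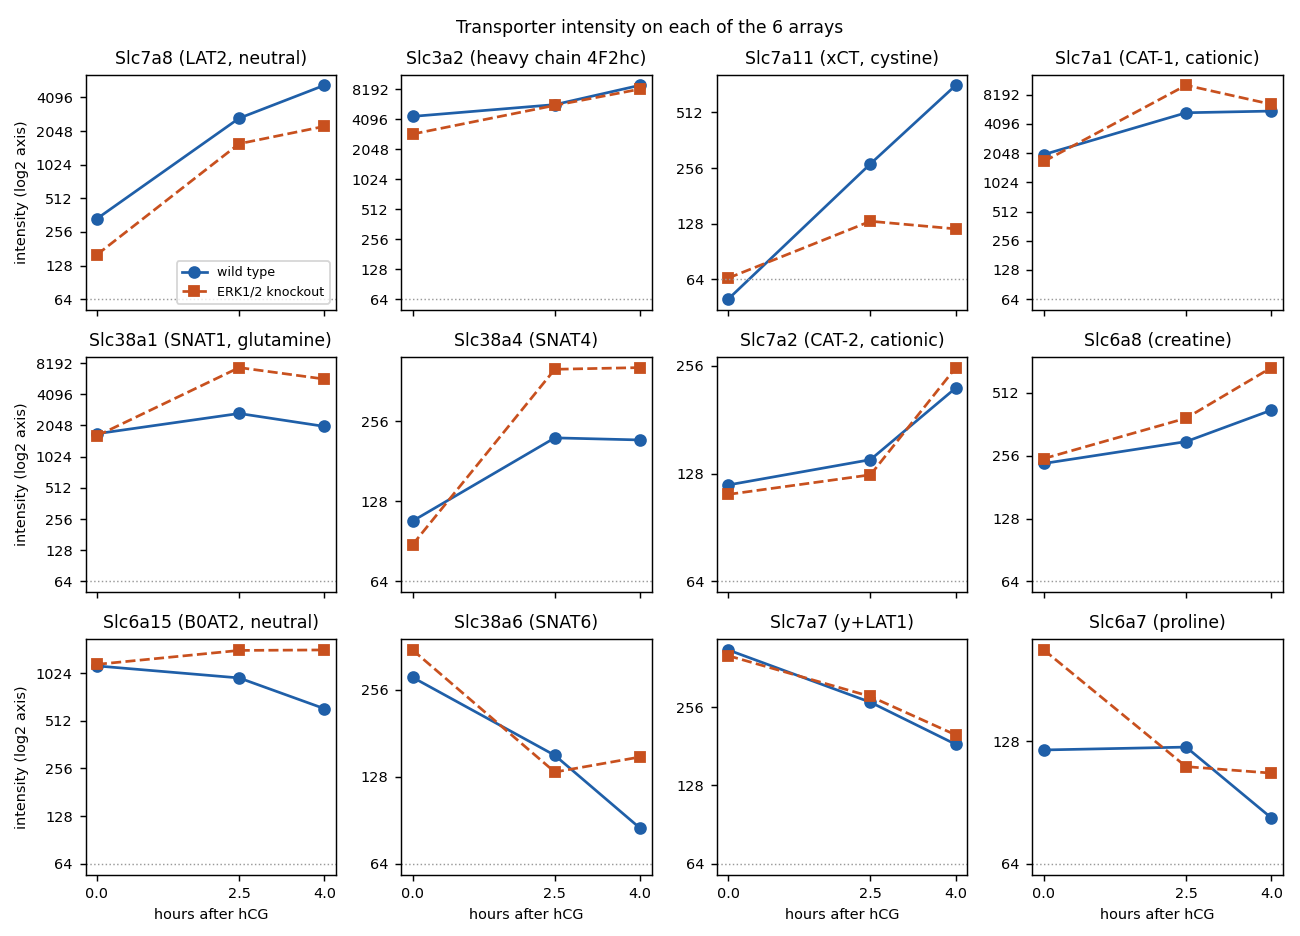
Intensity (log2 axis) against hours after hCG for 12 transporters, with wild type as blue circles and knockout as orange squares, 1 array per point and a dotted line at the floor of 64. Slc7a8 climbs in both genotypes, Slc7a11 reaches 719 in wild type and 120 in knockout at 4 h, and Slc38a1 reaches 7402 in knockout and 2671 in wild type at 2.5 h.

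A fit over all 6 arrays gave the hCG response shared by both genotypes, as the mean of 2.5 h and 4 h minus 0 h. It called 8 of 33 members with limma at an adjusted p under 0.05, 5 up (3.44% of all genes) and 3 down (6.73% of all genes). Slc7a8, Slc7a1, Slc38a4, Slc3a2 and Slc6a8 rose, and Slc38a6, Slc7a7 and Slc38a3 fell. The residual of this fit is how the time course differs between genotypes, and variation among animals does not enter the p-values. A fit that leaves out a time has fewer arrays to estimate that residual from. Leaving out the 4 h arrays ended the calls of Slc6a8 (adjusted p = 0.1311 with limma) and Slc7a7 (0.06355), and leaving out the 2.5 h arrays that of Slc38a3 (0.09463). With cyclic loess 6 were up and 2 down. With no floor more genes were tested, and Slc3a2, Slc38a3, Slc38a4, Slc38a6 and Slc6a8 missed the threshold (adjusted p from 0.05408 to 0.06507 with limma). With the mean of all probe sets Slc38a4 (0.06772), Slc7a7 (0.06006) and Slc38a3 (0.09103) missed it, and Slc38a1 passed it (0.04957 with limma).

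Slc7a8 (LAT2) exchanges large and small neutral amino acids and needs Slc3a2 as its heavy chain. In wild type its intensity was 336, 2670 and 5272 at 0 h, 2.5 h and 4 h, and in knockout 160, 1577 and 2258. The knockout array was the lower one at each time, while the climb was of like size, 15.7-fold in wild type and 14.1-fold in knockout at 4 h. The response over both genotypes was 3.52 on the log2 scale (SE 0.158, adjusted p = 0.001244 with limma). Before hCG the knockout array was 2.1-fold lower (-0.94, log2, and not called, with 32 added). The genotype difference over the 3 times was -1.02 (log2, SE 0.149), which missed the threshold (adjusted p = 0.08198 with limma) and passed it without the 4 h arrays (-0.92, adjusted p = 0.02347).

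Slc3a2 is the heavy chain that carries Slc7a5, Slc7a6, Slc7a7, Slc7a8, Slc7a10 and Slc7a11 to the surface. It stood at 4363, 5728 and 8967 in wild type and at 2901, 5628 and 8201 in knockout. Both genotypes were highest at 4 h, by 2.06-fold and 2.83-fold over 0 h, and the genotypes were close once hCG had been given. It rose by 0.97 on the log2 scale over both genotypes (SE 0.171, adjusted p = 0.02971 with limma).

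The other light chains of Slc3a2 went separate ways. Slc7a5 (LAT1), the main leucine carrier of dividing cells, was at 1349, 1062 and 1003 in wild type and at 870, 1242 and 1121 in knockout. It was thus highest before hCG in wild type and lowest before hCG in knockout, with no pair of arrays 2-fold apart in the comparisons made. Slc7a6, which exports arginine in exchange for neutral amino acids, kept between 981 and 1420 on all arrays. Slc7a7, its relative of gut, kidney and leukocytes, fell in both genotypes, from 424 to 267 and 184 in wild type and from 403 to 281 and 200 in knockout (log2 response -0.85, SE 0.139, adjusted p = 0.02661 with limma). Slc7a10 was under the floor, at 21 to 25.

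Slc7a11 (xCT) brings in cystine in exchange for glutamate and so feeds glutathione synthesis. Its intensity was 50, 270 and 719 in wild type, against 65, 132 and 120 in knockout. Before hCG both arrays were near the floor. The wild type 0 h value lay under the floor, so the size of the measured 14.4-fold at 4 h is uncertain, and counted from the floor of 64 it was 11.2-fold. The knockout value at 4 h was 1.85-fold that at 0 h. The knockout array was 5.99-fold below wild type at 4 h, after 2.05-fold at 2.5 h, a call that adding 32 before log2 ended (-0.88, log2). A dimmer probe set of the gene read 19, 104 and 338 in wild type, against 50, 37 and 56 in knockout, under 64 on 4 of 6 arrays, all 3 of knockout among them, so it gives no level for the knockout. With the 0 h value as measured, the interaction of genotype and hCG was -2.19 (log2, SE 0.81), which did not pass over all genes (adjusted p = 0.5426 with limma). The response over both genotypes was 2.05 (SE 0.541, adjusted p = 0.06722 with limma), and it passed without the 2.5 h arrays (0.03123) and without the 4 h arrays (0.0004283).

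Slc7a1 (CAT-1) is the main surface carrier of arginine and lysine. It was at 1980, 5337 and 5554 in wild type and at 1679, 10256 and 6519 in knockout. Knockout had the higher peak, 6.11-fold over 0 h at 2.5 h against 2.70-fold in wild type, and had come down to 3.88-fold at 4 h against 2.81-fold. A second probe set gave log2 responses of 2.46 in knockout and 1.83 in wild type at 2.5 h, and of 1.79 and 1.85 at 4 h, where its knockout array (1284) lay below wild type (1490). The rise over both genotypes was 1.87 (log2, SE 0.25, adjusted p = 0.01845 with limma).

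Slc7a2 (CAT-2), a second arginine carrier, gave contrary readings. By the probe set used it was at 119, 140 and 222 in wild type, against 112, 127 and 253 in knockout, highest at 4 h in both. Another probe set read 99, 99 and 91 in wild type, against 192, 90 and 94 in knockout, flat in wild type and lower after hCG in knockout. Its response over both genotypes missed the threshold (0.62, log2, SE 0.148, adjusted p = 0.05226 with limma) and passed it with cyclic loess (0.04541), with a floor of log2 7 (0.0467) and without the 2.5 h arrays (0.04287). Slc7a4, a family member with no settled substrate, kept between 363 and 495, and Slc7a9, the light chain of Slc3a1, between 57 and 82.

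Of the 3 Slc38a carriers of system A, which take up glutamine, alanine and serine with sodium, 1, Slc38a1, was 2-fold higher in knockout than in wild type after hCG, and no difference in response passed the test. Slc38a1 (SNAT1) was at 1704, 2671 and 2004 in wild type and at 1624, 7402 and 5735 in knockout. The genotypes were alike before hCG and after it the knockout arrays stood 2.77-fold (2.5 h) and 2.86-fold (4 h) above wild type. By a second probe set, at 767, 2041 and 1370 in wild type, against 694, 3227 and 1635 in knockout, the differences were 1.58-fold and 1.19-fold. Both probe sets put knockout above wild type after hCG, but the second not by 2-fold, and averaging all probe sets ended the call at 4 h (0.89, log2). The response over both genotypes was 1.22 (log2, SE 0.347) and missed the threshold (adjusted p = 0.07723 with limma). It passed with the mean of all probe sets (0.04957 with limma) and without the 4 h arrays (0.002929). On the same 2 arrays the theca marker Cyp17a1, an enzyme of androgen synthesis, was at 14251 and 13997, against 2037 and 1399 in wild type, while 2 of 4 theca markers lay below wild type at each time, Hhip by 3.99-fold at 4 h. The part of theca RNA in the Slc38a1 values was not tested.

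Slc38a4 (SNAT4), another carrier of system A, was at 108, 222 and 218 in wild type and at 88, 402 and 408 in knockout. It rose over both genotypes by 1.61 (log2, SE 0.275, adjusted p = 0.0279 with limma), and knockout was 1.81-fold and 1.87-fold above wild type after hCG. The 2-fold calls in wild type ended when all probe sets were averaged (0.66 and 0.40, log2) and with 32 added (0.86 and 0.84). A dimmer probe set, under 64 on 3 arrays, read 53, 64 and 46 in wild type, against 53, 124 and 82 in knockout, with the knockout array above wild type at both times after hCG. Slc38a2 (SNAT2), whose transcript is known to answer amino acid shortage, had no pair 2-fold apart in the comparisons made, with 7075, 5852 and 6405 in wild type, against 6465, 9212 and 9077 in knockout.

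The response of a gene in knockout minus that in wild type sums this up. At 2.5 h it was at least 1 (log2) in 3 of 33 members, Slc38a1 (1.54), Slc7a1 (1.18) and Slc38a4 (1.15), beside 1.91% of all genes, and at most -1 in 1, Slc7a11 (-1.41), beside 2.20%. At 4 h it was at least 1 in 3, Slc38a1 (1.59), Slc38a4 (1.20) and Slc6a15 (1.20), beside 5.97% of all genes, and at most -1 in 1, Slc7a11 (-2.96, or -2.61 counted from the floor), beside 3.37%. By second probe sets the difference was under 1 at 2.5 h for Slc38a1 (0.81), Slc7a1 (0.63) and Slc38a4 (0.95), and at 4 h for Slc38a1 (0.40) and Slc38a4 (0.83). Second probe sets also passed the line where the one used did not, for Slc7a2 at 2.5 h (-1.09) and Slc38a9 at 4 h (1.04). The interaction test with limma called 0 of 33 members and 0 of 11153 genes (0.0% in each direction), with 6 members and 1015 genes at an unadjusted p under 0.05. The lowest adjusted p among members was that of Slc38a4 (1.18, log2, SE 0.219, adjusted p = 0.4582). The difference between the genotypes' responses is therefore given here as values of single arrays.

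**Figure D2:**
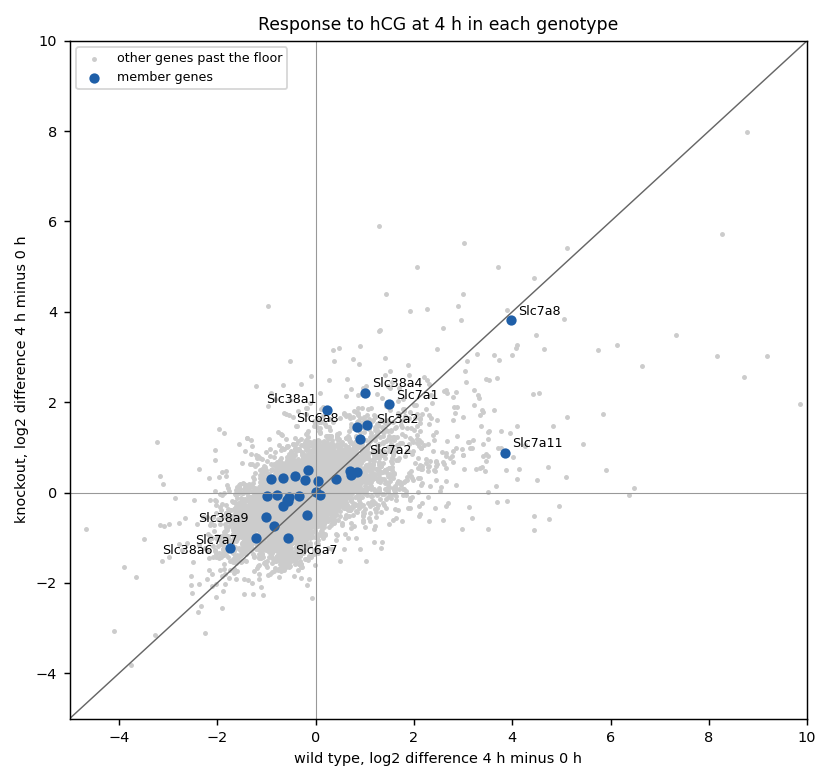
Log2 difference of 4 h minus 0 h in knockout against that in wild type, with the 33 members past the floor in blue, other genes in grey and the diagonal of equal response as a line. Slc7a8 lies at the diagonal with 3.97 and 3.82, Slc7a11 far below it with 3.85 and 0.88, and Slc38a1 above it with 0.23 and 1.82.

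The carriers of system N, which move glutamine and histidine, are Slc38a3 and Slc38a5. Slc38a3 (SNAT3), known in cumulus cells as a source of alanine for the oocyte, fell from 1344 to 911 and 750 in wild type and from 1284 to 746 and 768 in knockout. The response of Slc38a3 was -0.73 (log2, SE 0.146, adjusted p = 0.03685 with limma), and with cyclic loess the adjusted p was 0.06202. Slc38a5 (SNAT5) was at 10079, 7655 and 6770 in wild type and at 12349, 11378 and 11072 in knockout. Knockout was the higher at each time, by 1.23-fold, 1.49-fold and 1.64-fold, and the difference over the 3 times was 0.52 (log2, SE 0.145), which did not pass (adjusted p = 0.2162 with limma).

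The other Slc38a members differed among themselves. Slc38a6 (SNAT6) fell from 283 to 152 and 85 in wild type and from 352 to 133 and 150 in knockout (-1.32, log2, SE 0.224, adjusted p = 0.02787 with limma). Slc38a9, the lysosomal carrier that reports arginine to the growth kinase complex mTORC1, was at 144, 102 and 72 in wild type and at 153, 117 and 106 in knockout. The wild type fold at 4 h was exactly 2.0 by this probe set, a call that ended with cyclic loess (-0.89, log2), the mean of all probe sets (-0.84) and 32 added (-0.76), and the log2 difference was -1.45, -0.76 and -0.24 by 3 others over the floor. Slc38a10 was at 3280, 2040 and 1648 in wild type, just short of 2-fold lower at 4 h (1.99-fold), and at 2676, 2617 and 2532 in knockout. Slc38a7, another lysosomal carrier, kept between 260 and 393. At 4 h 9 of 9 granulosa markers lay below 0 h in wild type (median -1.27, log2) and 3 of 9 in knockout (median 0.18), where Slc38a6 was lower too. Of oocyte markers, 15 of 15 lay below 0 h in wild type (-0.53) and in knockout (-1.44). Their part in the lower values was not tested.

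**Figure D3:**
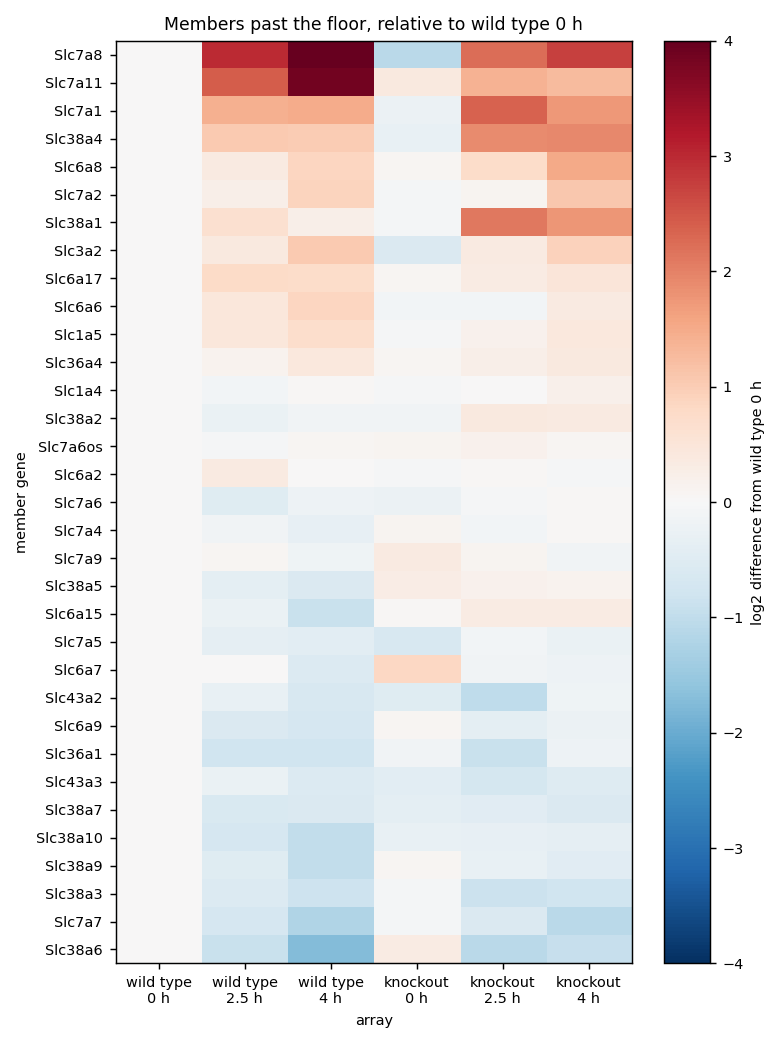
Log2 difference of each array from the wild type 0 h array for the 33 members past the floor, 1 row per gene and 1 column per array, red for higher and blue for lower. Slc7a8 and Slc7a11 are the darkest red cells at wild type 4 h (3.97 and 3.85), and Slc38a6 is the darkest blue (-1.74).

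In the Slc6a family, sodium and chloride-coupled carriers, the members past the floor move creatine, taurine, glycine, proline, other neutral amino acids and, for Slc6a2 (73 to 97), noradrenaline. The other probe sets of Slc6a2 were under the floor, between 16 and 24 on all arrays. Slc6a8, the creatine carrier, rose in both genotypes, from 235 to 299 and 423 in wild type and from 248 to 387 and 676 in knockout (0.82, log2, SE 0.171, adjusted p = 0.04031 with limma). A second probe set of almost the same mean level read 182, 478 and 689 in wild type, against 124, 396 and 639 in knockout. By the second the climb was larger and knockout lay below wild type at each time, so the order of the genotypes depends on the probe set.

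Slc6a6, the taurine carrier, was at 2998, 4137 and 5410 in wild type and at 2795, 2782 and 3818 in knockout. A second probe set read 1597, 3461 and 4389 in wild type, against 1293, 1566 and 2579 in knockout. Knockout was below wild type at each time by both, by 1.49-fold at 2.5 h by the first and 2.21-fold by the second. The difference over the 3 times was -0.39 (log2, SE 0.152, adjusted p = 0.2757 with limma).

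Slc6a15 (B0AT2), a carrier of branched-chain amino acids and proline, was at 1136, 954 and 610 in wild type and at 1162, 1423 and 1433 in knockout. The arrays were alike at 0 h and stood apart later, wild type lower and knockout higher, with a 2.35-fold difference at 4 h and neither response reaching 2-fold. Slc6a9 (GLYT1), the glycine carrier, was at 789, 523 and 496 in wild type and at 826, 604 and 676 in knockout. Slc6a17, a vesicle carrier of neutral amino acids, was at 86, 146 and 142 in wild type and at 91, 107 and 120 in knockout.

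Slc6a7, the proline carrier, was at 122, 124 and 83 in wild type and at 215, 111 and 107 in knockout. The knockout 0 h array stood above the other 5, and the knockout value at 4 h was 2.01-fold lower than at 0 h, a call that ended with cyclic loess (-0.99, log2) and with 32 added (-0.83). The dim proline carriers Slc6a20a and Slc6a20b, both under the floor, were also highest on that array, at 36 and 44 against 17 to 25 and 26 to 31 elsewhere. That array had the highest oocyte marker sum of the 6, at 48463, and 15 of 15 oocyte markers past the floor were above wild type at 0 h, with a median log2 difference of 0.89. The part of oocyte RNA in these values was not tested.

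Of the Slc1a, Slc36a and Slc43a members past the floor, none was called in the 7 comparisons. The neutral amino acid exchanger Slc1a5 (ASCT2), known for glutamine, went from 106 to 145 and 173 in wild type and from 102 to 120 and 143 in knockout, and its relative Slc1a4 kept between 121 and 151. Slc36a1, a proton-coupled carrier of lysosomes and the gut surface, was at 322, 186 and 186 in wild type and at 291, 175 and 279 in knockout. Slc36a4 kept between 629 and 843. Slc43a2 (LAT4), which lets branched-chain amino acids and phenylalanine pass, was at 211, 171 and 134 in wild type and at 150, 105 and 187 in knockout. Slc43a3, a nucleobase carrier by function, kept between 201 and 324.

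Between genotypes few members differed 2-fold on any pair of arrays. Before hCG 0 were higher in knockout (0.681% of all genes) and 1, Slc7a8, lower (0.843% of all genes). At 2.5 h 1, Slc38a1, was higher (1.44% of all genes) and 1, Slc7a11, lower (2.75% of all genes). By 4 h 2, Slc38a1 and Slc6a15, were higher (5.0% of all genes) and 2, Slc7a8 and Slc7a11, lower (3.51% of all genes). The 33 members had median log2 differences of -0.07, 0.07 and 0.19 beside -0.03, 0.14 and 0.20 over all genes. The fit over the 3 times with limma called 0 members (0.00897% of all genes higher, 0.0269% lower), with 5 members and 1940 genes at an unadjusted p under 0.05. Without the 0 h arrays it called Slc38a1 (1.49, log2, adjusted p = 0.02002) and Slc38a4 (0.88, adjusted p = 0.046).

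**Figure D4:**
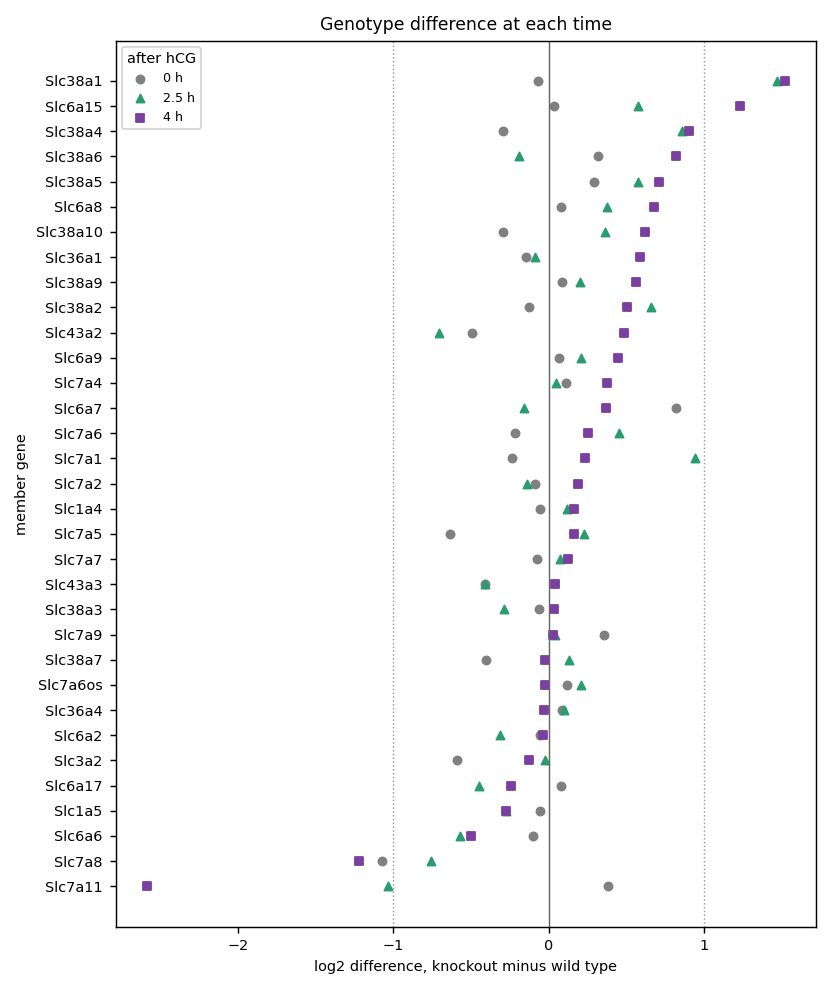
Log2 difference of knockout minus wild type for the 33 members past the floor at 0 h (grey circles), 2.5 h (green triangles) and 4 h (purple squares), with dotted lines at 2-fold. Slc7a11 moves from 0.38 at 0 h to -2.58 at 4 h and Slc38a1 from -0.07 to 1.52, while most members stay between the lines.

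Readings of single probe sets limit these values. Of the 33 members, 15 had more than 1 probe set over the floor. At 4 h in wild type, 4 of the 15 were called by the probe set used, and 3 of the 4 the same way by the next brightest. In knockout 3 of 5 were. Called the same way by both at 4 h were Slc7a1, Slc7a11 (its second probe set over 64 on 2 arrays) and Slc38a9 in wild type. In knockout these were Slc7a1, Slc38a1 and Slc6a8. Slc38a4 was called by 1 in both genotypes. Slc7a2 in knockout was called by both in opposite directions (1.18 and -1.03, log2).

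**Figure D5:**
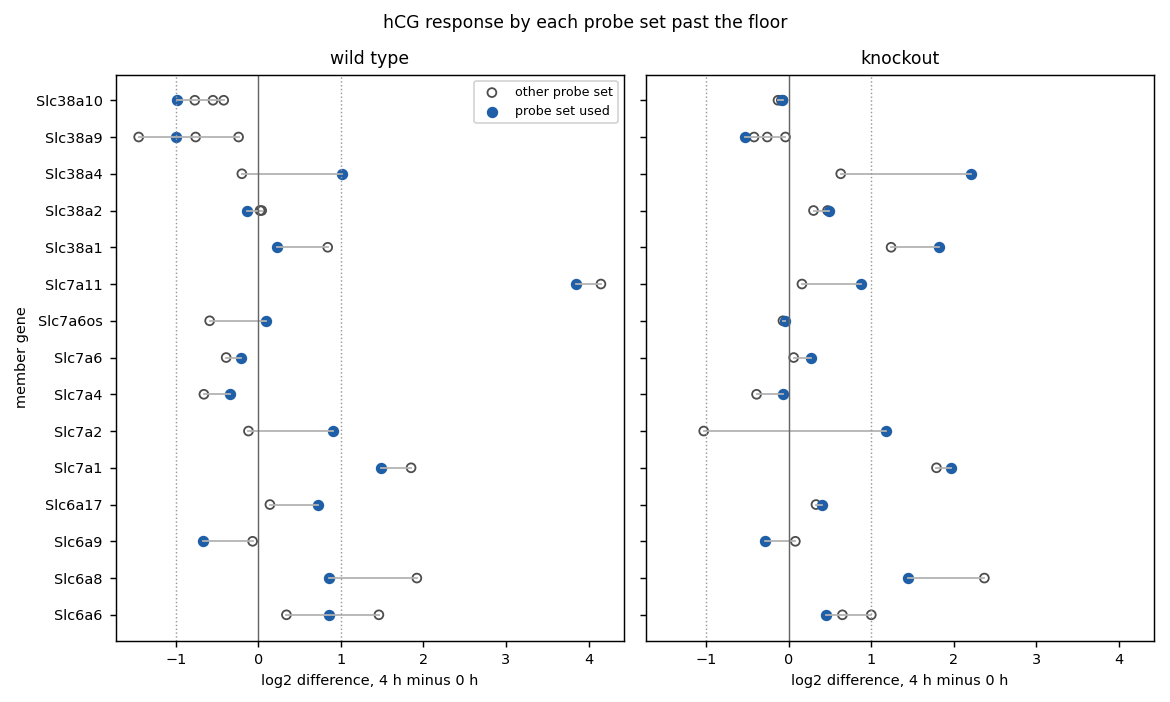
Log2 difference of 4 h minus 0 h in wild type (left) and knockout (right) by every probe set over the floor, for the 15 members with more than 1, with filled points for the probe set used and open points for the others. The 2 probe sets of Slc7a2 point in opposite directions in knockout (1.18 and -1.03), and those of Slc7a11 give 3.85 and 4.15 in wild type, both from a 0 h value under the floor.

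Genes that use or sense the carried amino acids were set beside the carriers. Of 31 enzymes of amino acid metabolism past the floor, wild type had 5 up and 2 down by 2-fold at 4 h, and knockout 2 up and 4 down. Over all genes 4.9% were up and 9.09% down in wild type, and 3.87% and 4.55% in knockout. Gclc, the catalytic subunit of the enzyme that joins glutamate and cysteine toward glutathione, was at 1334, 3677 and 5635 in wild type and at 1613, 1876 and 2356 in knockout. It was 2.39-fold lower in knockout at 4 h, where Slc7a11 was lower too. Gclm, the other subunit of that enzyme, did not share this, at 541, 581 and 552 in wild type and at 564, 593 and 697 in knockout. Odc1, which makes putrescine from the arginine product ornithine, was at 4500, 15336 and 20267 in wild type and at 4422, 7073 and 6663 in knockout. Got1, the cytosolic aspartate aminotransferase, was higher after hCG in both genotypes, by 2.60-fold in wild type and 2.54-fold in knockout at 4 h. Psat1, of serine synthesis, was 3.53-fold and 3.26-fold higher.

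Of 18 genes of the ATF4 and amino acid response list past the floor, 3 were up and 2 down by 2-fold in wild type at 4 h (4.9% and 9.09% of all genes), and 5 up and 0 down in knockout (3.87% and 4.55%). Atf4 itself, the transcription factor of that response, was at 1663, 2588 and 2858 in wild type and at 1459, 2769 and 3008 in knockout. Asns, asparagine synthetase and a classical ATF4 target, was nearly flat, between 688 and 891, while Psat1, named above, is on this list too. In knockout at 4 h, 1 of the 18 was 2-fold above wild type (5.0% of all genes) and 2 below (3.51%). Ddit4 was the higher, at 1024, 930 and 1582 in wild type, against 1436, 3927 and 4693 in knockout. Nupr1 was at 637, 726 and 1377, against 175, 135 and 113. Vldlr was at 716, 787 and 1401, against 536, 433 and 341. Of 19 cytosolic aminoacyl tRNA synthetases, which load amino acids onto tRNA, 0 were 2-fold different in any of the 7 comparisons, with medians of 0.09 and 0.27 (log2) at 4 h in wild type and knockout.

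Of 25 genes of amino acid sensing by mTORC1 past the floor, 1 was up and 1 down by 2-fold in wild type at 4 h (4.9% and 9.09% of all genes), and 0 up and 1 down in knockout (3.87% and 4.55%). The higher one was Rragd, a GTPase that brings mTORC1 to the lysosome, at 225, 1499 and 2853 in wild type and at 151, 155 and 167 in knockout. It was 12.7-fold higher at 4 h in wild type and 1.11-fold in knockout. Sesn1, a leucine-regulated inhibitor of that pathway, was lower in both genotypes, at 2561, 1301 and 914 and at 2872, 1178 and 1335. Of 15 amino acid carriers and partners outside the 7 families past the floor, 1 was up and 1 down by 2-fold in wild type at 4 h (4.9% and 9.09% of all genes). In knockout 1 was up and 0 down (3.87% and 4.55%). The one up in each genotype was Slc16a10, a carrier of aromatic amino acids (3.09-fold and 2.69-fold). The one down was Slc25a18, at 165, 88 and 36 in wild type and at 117, 94 and 62 in knockout.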

How the data were processed

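RNA from 6 samples of ovarian granulosa cells was labelled and hybridised to 1 Affymetrix array each, per the labels' protocols. The authors deposited 1 intensity per probe set, made with RMA in affy per the submitters' processing notes, and no version of it is given in the sources used here. They are linear whole numbers between 9 and 59425, and array medians are 54 or 55. The tests had been chosen for log2 values, so log2 was taken of the deposited intensity. The quantile step of RMA hides a change of total RNA per cell.

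Of 45101 probe sets, 34958 named 1 gene, 932 several and 9211 none, and only the first were used. All 63 member symbols had an entry, unchanged, in a GRCm38.p6 gene table. The members have 125 probe sets. Calls between 2 arrays need a log2 difference of at least 1 and a brighter array at log2 6. Fits used limma 3.58.1 in R 4.3.3 (lmFit, eBayes, Benjamini-Hochberg over 11153 genes, threshold 0.05), additive in time and genotype, and for the interaction 4 cells with 2.5 h and 4 h together. Each left 2 residual degrees of freedom over all 6 arrays, and fits that leave out a time had fewer. The script was tested on simulated data. Alternatives were cyclic loess, the mean of all probe sets, no floor, a floor of log2 7, adding 32 before log2 and a prior variance that follows the level. Choosing the probe set by the linear mean, leaving out a time, reading second probe sets and counting Slc7a11 from the floor were added after seeing the data.

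Values on all 6 arrays were to be given for members past the floor called in at least 1 of the 7 comparisons, for Slc3a2 and its partners, and where probe sets disagree. Others, among them Slc38a3 and genes of the pathway lists, were named after their values were seen. The members and lists were chosen with earlier results of these data known.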

Additional observations from a re-analysis of the deposited data

How the results depend on the processing

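Of the named members' calls between 2 arrays, 17 were lost and 8 gained over the alternatives where the member stayed past the floor. Most of these changed with 32 added (9 lost) and when all probe sets were averaged (6 lost, 3 gained). Calls of members that a setting put under its floor are not in these counts. Those members were Slc38a6 and Slc7a2 with averaging, and Slc38a9 and Slc6a7 with a floor of log2 7. Adding 32 to each intensity before log2 took the count of members 2-fold different between genotypes before hCG from 1 to 0 (Slc7a8, -0.94 log2) and at 2.5 h from 2 to 1 (Slc7a11, -0.88). The limma count for the hCG response fell from 8 members to 5 when all probe sets were averaged, and to 3 with no floor. Averaging put Slc38a6 under the floor and added Slc38a1 (adjusted p = 0.04957 with limma). With no floor the estimates stayed and more genes were tested, and adjusted p was 0.05408 to 0.06507 for the lost members Slc3a2, Slc38a3, Slc38a4, Slc38a6 and Slc6a8. The genotype difference over the 3 times went from 0 members to 2 without the 0 h arrays and to 1 without the 4 h arrays. The cause was not tested. By direction, members higher in wild type at 4 h went from 5 to 8 with cyclic loess, those lower from 3 to 1 when probe sets were averaged, and those lower in knockout at 4 h from 3 to 1 when averaged or with 32 added. In the other settings run, total counts stayed within 1.5 times their value. No named member that was called changed direction in a setting where it stayed past the floor. A second probe set of Slc7a2 was called the other way in knockout at 4 h (-1.03, log2). Taking the Slc6a8 probe set by the linear mean raised its wild type response at 4 h from 0.85 to 1.92 (log2). No paired analysis was possible because each genotype and time had 1 array and no replicate number to pair by. The additive fit does match the genotypes by time. Whole-number rounding and signal near background limit the members close to 64.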
